A study of Homo sapiens with 6 samples.

Results

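The genes described here are 10 markers and transcription factors of the mesenchymal state of neuroblastoma cells, taken by name from a table of 26372 gene symbols. They are the transcription factor genes TWIST1, SNAI2, ZEB1 and ZEB2, the receptor genes PDGFRA, PDGFRB and CD44, and the secreted or matrix protein genes LGALS1, TNC and FN1. All 10 were in the table, and all 10 had the mean of at least 1 FPKM over 6 libraries that was required for testing, as did 13263 genes in all. FPKM relates the fragments of a gene to its length and to the library's size, so levels can be compared between genes, but only roughly.

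The cells were SH-SY5Y, a human neuroblastoma line that is mostly of the noradrenergic, neuron-like type. In the shTDP43 group (3 libraries) they stably carried a lentiviral short hairpin RNA against TDP-43, and in the shNC group (3 libraries) a control hairpin from the same vector. TDP-43, encoded by TARDBP, is a DNA- and RNA-binding protein that regulates splicing, and the comparison asks how its stable knockdown alters the transcriptome. Both groups were grown under puromycin selection and used for poly(A) RNA sequencing. Whether each library had its own culture or infection is not in the labels, so p-values measure the spread between these libraries, which may be technical. A single hairpin was used against TDP-43, so its other effects, or those of the infected population, cannot be told apart from those of TDP-43 loss.

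TARDBP had 36.0, 33.1 and 34.8 FPKM in the shTDP43 libraries, against 56.1, 56.2 and 56.6 FPKM in the shNC libraries. The groups did not overlap, and the shTDP43 mean was 61.5% of the shNC mean (log2 fold change -0.69, SE 0.03, limma adjusted p = 2.84e-06; exact two-sided permutation p = 0.1, the smallest that 3 against 3 libraries allow). The number of genes above 0 was 17945 to 18025 in shTDP43 libraries and 18217 to 18334 in shNC libraries. Read totals are not in the table, and steps among the lowest values gave rough relative depths of 1 to 1.12 for shTDP43 and 1.16 to 1.27 for shNC. Depth thus moved with the group, and its part in the results was not tested. Factors that would equalise the typical gene between libraries ran from 0.997 to 1.003, and the median log2 fold change of all tested genes was 0.00. SNORD3A, a small nucleolar RNA, was far lower in shTDP43 replicate 3 (8551 FPKM) and shNC replicate 1 (11541 FPKM) than in the other 4 libraries (at least 137209 FPKM). Where a call named in the text is lost without both of these libraries, that is said beside it.

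Neuroblastoma cells occur in a noradrenergic, neuroblast-like state and in a mesenchymal, substrate-adherent state that resembles neural crest-derived mesenchyme. The mesenchymal state is known for motility, matrix production and resistance to chemotherapy. TWIST1, SNAI2, ZEB1 and ZEB2 bind E-box DNA and are best known for driving epithelial-mesenchymal transition, in which they repress epithelial adhesion genes. CD44, galectin-1, tenascin-C, fibronectin and the PDGF receptors are surface and matrix proteins of mesenchymal cells.

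The 10 genes moved in both directions. TWIST1, PDGFRA, PDGFRB and TNC rose in shTDP43 cells, whereas CD44, LGALS1, FN1, SNAI2, ZEB1 and ZEB2 fell. All 10 passed a limma adjusted p under 0.05 (limma, Benjamini-Hochberg adjustment over all tested genes), 4 higher and 6 lower, against 38.1% of all tested genes (18.5% higher and 19.6% lower). The shTDP43 and shNC libraries did not overlap for any of the 10, against 50.7% of all tested genes (25.3% higher and 25.4% lower). The size of the change was over 0.5 on the log2(FPKM + 1) scale in 7 of the 10, as in 616 of the 5054 genes that passed (12.2%). The median size was 0.55 for the 10 genes, beside 0.12 for all tested genes, and the signed median was -0.13. The 10 genes and the lists below were chosen with earlier results of these data known. Their shares and sizes beside those of all tested genes are therefore descriptive and no test of the lists. Without both libraries low in SNORD3A, 8 of the 10 passed, the exceptions being ZEB1 and ZEB2. In bulk RNA, fewer cells in a given state and less RNA per cell cannot be told apart.

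**Figure D1:**
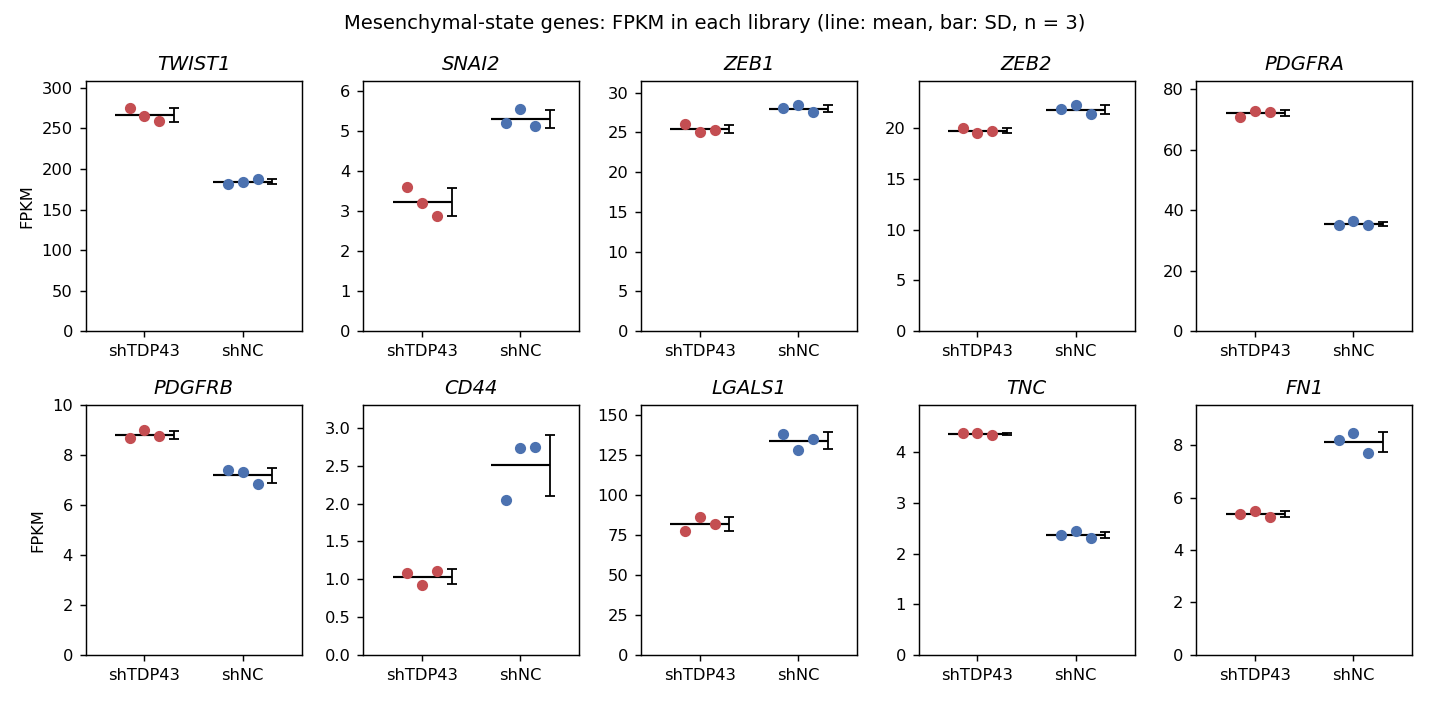
FPKM of the 10 genes in each of the 3 shTDP43 libraries (red, left) and 3 shNC libraries (blue, right), with the group mean as a line and the SD as a bar; every vertical axis starts at 0 and has its own scale. The points of the 2 groups do not overlap in any panel, and the gap is narrow for ZEB1 and ZEB2 and wide for PDGFRA, TNC and CD44.

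Among the transcription factors, TWIST1 rose and the other 3 fell. TWIST1 (chromosome 7, 19113047 to 19117636, GRCh38), a basic helix-loop-helix factor of mesoderm and neural crest, was the most abundant of the 10 genes. It had 276, 265 and 259 FPKM in the shTDP43 libraries, against 181, 185 and 188 FPKM in the shNC libraries. Each shTDP43 library lay well above each shNC library, and the mean rose to 145% of shNC (267 ± 8.34 FPKM in shTDP43 and 184 ± 3.23 FPKM in shNC; SD, n = 3 each). The log2 fold change was 0.53 (95% interval 0.47 to 0.59; limma adjusted p = 5.11e-06). Only 263 tested genes had a higher mean level over the 6 libraries than TWIST1.

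SNAI2 (chromosome 8, 48917598 to 48921429), which encodes the zinc finger repressor Slug of migrating neural crest, had 3.59, 3.20 and 2.88 FPKM in shTDP43 cells, against 5.20, 5.54 and 5.12 FPKM in shNC cells. It fell to 60.9% of shNC (log2 fold change -0.58, 95% interval -0.75 to -0.41; limma adjusted p = 0.000594). Its shTDP43 libraries were the most spread of the 10 genes, the highest being 1.25 times the lowest, but all lay below the shNC range. TWIST1 and SNAI2, both known as neural crest and mesenchymal factors, thus moved in opposite directions.

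ZEB1 and ZEB2, paralogous zinc finger and homeodomain repressors, fell slightly and by similar proportions. ZEB1 (chromosome 10, 31318417 to 31529804) had 26.0, 25.0 and 25.3 FPKM in shTDP43 libraries, against 28.0, 28.4 and 27.5 FPKM in shNC libraries, which is 90.9% of shNC. ZEB2 (chromosome 2, 144384081 to 144520119) had 20.0, 19.5 and 19.7 FPKM in shTDP43 libraries, against 21.9, 22.2 and 21.3 FPKM in shNC libraries, 90.5% of shNC. Both changes were near -0.13 to -0.14 on the log2 scale (limma adjusted p = 0.00796 for ZEB1 and 0.00821 for ZEB2), and 3202 tested genes fell further than ZEB1 and 3121 further than ZEB2. On the log2(FPKM + 1) scale the log2 ratio of ZEB1 to ZEB2 was 0.35 ± 0.01 in both groups (SD, n = 3 each), a difference of 0.0044 between shTDP43 and shNC (exact two-sided permutation p = 0.6), and at this number of libraries a small difference in response is not detectable. Without both libraries low in SNORD3A, the adjusted p was 0.0675 for ZEB1 and 0.0661 for ZEB2, at log2 fold changes of -0.13 for each. ZEB1-AS1, a noncoding RNA whose locus overlaps the start of ZEB1, had 5.61 ± 0.235 FPKM in shTDP43 and 6.14 ± 0.814 FPKM in shNC (limma adjusted p = 0.337). The sources used here do not give the use of strand in counting, so reads in the shared stretch cannot be separated. The same holds for noncoding genes that overlap TWIST1, CD44, TNC, FN1 and ZEB2 in RefSeq.

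Because these 4 factors bind E-boxes, the 250 bases before the annotated starts of receptor and matrix genes that rose (TNC, PDGFRA and PDGFRB) or fell (CD44 and FN1) are shown for comparison, from RefSeq on GRCh38.p14, 5′ to 3′ on the gene's strand. LGALS1, which also fell, had no window in the set used and is not shown. Capitals mark each match to the general E-box CANNTG, which reads alike on both strands. The windows lie at chr11:35138921-35139170 for CD44 (plus strand), chr2:215436069-215436318 for FN1 (minus strand), chr9:115118158-115118407 for TNC (minus strand), chr4:54229043-54229292 and chr4:54233710-54233959 for the 2 starts of PDGFRA (plus strand) and chr5:150155846-150156095 for PDGFRB (minus strand).
CD44: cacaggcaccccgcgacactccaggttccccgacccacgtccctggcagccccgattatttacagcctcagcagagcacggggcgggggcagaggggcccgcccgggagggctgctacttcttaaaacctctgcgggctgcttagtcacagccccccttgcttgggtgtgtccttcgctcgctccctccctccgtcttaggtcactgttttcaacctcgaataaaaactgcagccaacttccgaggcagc
FN1: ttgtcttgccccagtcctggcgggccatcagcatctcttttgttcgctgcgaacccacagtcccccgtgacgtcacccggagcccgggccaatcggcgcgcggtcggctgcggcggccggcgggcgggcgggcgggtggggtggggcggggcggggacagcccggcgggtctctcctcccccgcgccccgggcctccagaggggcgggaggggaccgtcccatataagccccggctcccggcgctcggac
TNC: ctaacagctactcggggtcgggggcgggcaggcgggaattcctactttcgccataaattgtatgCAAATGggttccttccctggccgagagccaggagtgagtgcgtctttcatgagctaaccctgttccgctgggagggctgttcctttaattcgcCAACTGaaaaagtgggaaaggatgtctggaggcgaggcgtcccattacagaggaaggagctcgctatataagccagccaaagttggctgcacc
PDGFRA, start 1: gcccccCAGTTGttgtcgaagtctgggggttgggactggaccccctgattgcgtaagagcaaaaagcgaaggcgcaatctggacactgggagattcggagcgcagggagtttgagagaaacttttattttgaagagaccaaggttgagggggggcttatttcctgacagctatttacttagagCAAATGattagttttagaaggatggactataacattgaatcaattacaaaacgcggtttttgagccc
PDGFRA, start 2: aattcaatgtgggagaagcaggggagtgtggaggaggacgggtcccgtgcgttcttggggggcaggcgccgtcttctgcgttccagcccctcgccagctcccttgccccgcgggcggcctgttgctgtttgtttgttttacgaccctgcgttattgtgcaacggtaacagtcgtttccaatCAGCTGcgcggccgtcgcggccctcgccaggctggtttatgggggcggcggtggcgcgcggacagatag
PDGFRB: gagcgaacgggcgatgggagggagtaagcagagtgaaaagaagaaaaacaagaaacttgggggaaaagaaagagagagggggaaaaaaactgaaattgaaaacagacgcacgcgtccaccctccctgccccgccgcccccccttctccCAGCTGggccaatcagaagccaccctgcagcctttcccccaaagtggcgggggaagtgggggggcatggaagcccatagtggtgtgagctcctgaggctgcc
TNC and the first PDGFRA start have 2 CANNTG matches each, the second PDGFRA start and PDGFRB 1 each, and CD44 and FN1 0. Of 35116 such windows in the same RefSeq set, 61.8% hold at least 1 match. The letters CAGGTG (searched on both strands, and also a case of CANNTG), an E-box form known to bind ZEB and SNAI proteins, are in 17.5% of windows and in none of these 6. The transcription factor genes ZEB1 and ZEB2, which also fell, do have matches in their windows, which are not printed. Of the 7 ZEB1 windows, 4 hold CANNTG and 2 of these hold CAGGTG, and the single ZEB2 window has 1 CANNTG match and no CAGGTG, so genes with and without matches are found among those that fell. The GC box GGGCGG (both strands) is in 42.6% of windows, with 6 matches in FN1, 2 each in CD44 and the second PDGFRA start, 1 each in TNC and PDGFRB and 0 in the first PDGFRA start. These are matches of letters and not measured binding sites.

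PDGFRA and PDGFRB, which encode the paralogous receptor tyrosine kinases for platelet-derived growth factors, both rose, PDGFRA by far more. PDGFRA (chromosome 4, 54229293 to 54298245) had 70.9, 73.0 and 72.6 FPKM in shTDP43 libraries, against 35.2, 36.4 and 35.0 FPKM in shNC libraries. The highest library was 1.03 times the lowest in shTDP43 and 1.04 times in shNC, and the mean was 2.03 times that of shNC (72.2 ± 1.14 FPKM in shTDP43 and 35.5 ± 0.734 FPKM in shNC; SD, n = 3 each). Its log2 fold change of 1.00 (95% interval 0.94 to 1.06; limma adjusted p = 1.22e-07) was the largest of the 10 genes on the log2(FPKM + 1) scale, and 33 tested genes rose further. PDGFRB (chromosome 5, 150113839 to 150155845) had 8.70, 9.01 and 8.79 FPKM in shTDP43 libraries, against 7.41, 7.35 and 6.85 FPKM in shNC libraries, a rise to 123% of shNC (log2 fold change 0.26, 95% interval 0.16 to 0.37; limma adjusted p = 0.00272).

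The ratio of the receptors differed between groups. PDGFRA was 8.11 to 8.27 times PDGFRB in shTDP43 libraries and 4.75 to 5.11 times in shNC libraries. On the log2(FPKM + 1) scale the log2 ratio of PDGFRB to PDGFRA was -2.90 ± 0.01 in shTDP43 and -2.16 ± 0.05 in shNC, a difference of -0.74 with no overlap between libraries (exact two-sided permutation p = 0.1, the smallest possible). The ligands of these receptors were low in both groups, none with the mean of 1 FPKM needed for testing. PDGFD, a ligand of the beta receptor, had 1.15, 0.980 and 1.06 FPKM in shTDP43 and 1.09, 0.891 and 0.690 FPKM in shNC. PDGFA, a ligand of the alpha receptor, had 0.585, 0.163 and 0.331 FPKM in shTDP43 and 0.963, 0.730 and 0.906 FPKM in shNC, and PDGFB was listed at 0 in all 6 libraries.

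**Figure D2:**
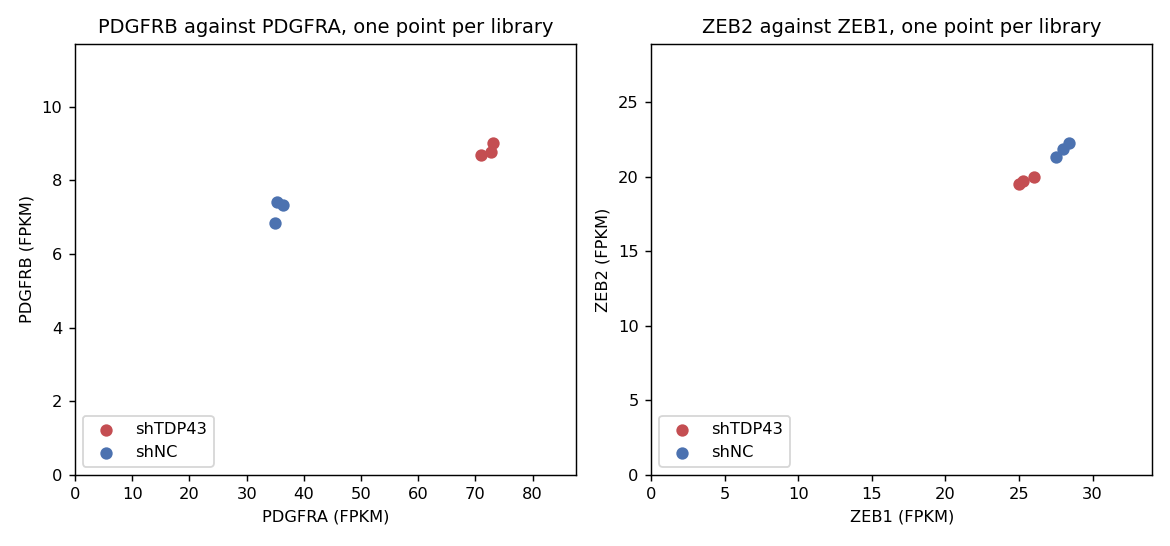
PDGFRB against PDGFRA (left) and ZEB2 against ZEB1 (right), both in FPKM, with 1 point per library (shTDP43 in red, shNC in blue) and axes from 0. The shTDP43 libraries lie at 2.03 times the PDGFRA level of shNC but at 1.23 times its PDGFRB level, whereas ZEB1 and ZEB2 lie at 90.9% and 90.5% of shNC.

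Of 12 tested genes that act directly at PDGF receptors or just after them, 4 rose and 2 fell, with a median log2 fold change of 0.02, beside 18.5% higher and 19.6% lower among all tested genes. SHC1, an adaptor, had 124 ± 0.660 FPKM in shTDP43 and 111 ± 0.730 FPKM in shNC, and SOS1, the exchange factor that loads Ras with GTP, had 31.5 ± 0.693 FPKM in shTDP43 and 26.3 ± 0.629 FPKM in shNC (SD, n = 3 each). RASA1, the Ras GTPase activating protein recruited by PDGFRB, rose to 115% of shNC, and PLCG1, a phospholipase, to 112%. PIK3R1, the regulatory subunit of PI3 kinase, fell to 81.6%, and the phosphatase gene PTPN11 to 91.5%, which did not pass with both low-SNORD3A libraries left out (limma adjusted p = 0.0521).

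CD44 (chromosome 11, 35139171 to 35232402), the receptor for the matrix polysaccharide hyaluronan, fell most of the 10 genes and had the lowest mean level over the 6 libraries. It had 1.08, 0.918 and 1.11 FPKM in shTDP43 libraries, against 2.04, 2.73 and 2.74 FPKM in shNC libraries. The shNC libraries were the more spread, with shNC replicate 1 lowest, yet all lay above every shTDP43 library. The mean fell to 41.3% of shNC (1.03 ± 0.103 FPKM in shTDP43 and 2.50 ± 0.401 FPKM in shNC; SD, n = 3 each), a log2(FPKM + 1) fold change of -0.78 (95% interval -1.02 to -0.54; limma adjusted p = 0.000733). That scale understates a change at this level, and the log2 fold change was -1.19 with a pseudocount of 0.1 and -1.26 with 0.01.

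Genes of CD44's ligand and its links to the cytoskeleton moved in both directions, with 2 of 13 tested higher and 4 lower (median log2 fold change -0.06), beside 18.5% higher and 19.6% lower among all tested genes. Of the 4 lower, VCAN was nearest the threshold, at 93.6% of shNC (limma adjusted p = 0.0499). The list had 3 lower without a variance trend, under the replicate block, and among genes of at least 5 FPKM. It also had 3 lower without any 1 library and without both libraries low in SNORD3A, and 7 lower with no filter on low values. Moesin and ezrin, which tie CD44 to actin, fell. MSN had 2.95 ± 0.102 FPKM in shTDP43 and 5.17 ± 0.703 FPKM in shNC (57.1% of shNC; limma adjusted p = 0.000713), and EZR had 35.3 ± 1.07 FPKM in shTDP43 and 42.0 ± 2.58 FPKM in shNC. RDX, which encodes the related radixin, rose to 113% of shNC (limma adjusted p = 0.00776, and 0.0767 without both libraries low in SNORD3A). HMMR, another hyaluronan receptor and a mitotic spindle protein, fell to 85.6%, and the hyaluronidase gene HYAL1 rose to 153%, a call lost (limma adjusted p up to 0.0887) when any 1 of 5 of the 6 libraries was left out, the exception being shNC replicate 2, and without both libraries low in SNORD3A (adjusted p = 0.182). HAS2, a hyaluronan synthase, was below the level tested, with 0.0497, 0.0297 and 0 FPKM in shTDP43 libraries, against 0.414, 0.494 and 0.471 FPKM in shNC libraries. The most abundant synthase gene was HAS3, with 1.44 FPKM in shTDP43 and 1.72 FPKM in shNC, which did not pass (limma adjusted p = 0.236). HAS1 had at most 0.0272 FPKM in any library. SPP1, which encodes the CD44 ligand osteopontin, was also below the level tested, with 0.122 to 0.172 FPKM in shTDP43 and 0.736 to 0.998 FPKM in shNC.

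LGALS1 (chromosome 22, 37675636 to 37679802), which encodes the secreted lectin galectin-1, had 77.6, 86.0 and 81.6 FPKM in shTDP43 libraries, against 138, 128 and 135 FPKM in shNC libraries. All shTDP43 values lay below all shNC values, at 61.1% of the shNC mean (log2 fold change -0.70, 95% interval -0.80 to -0.61; limma adjusted p = 1.04e-05). Other genes with a galectin name were tested in 4 cases, of which 3 fell and 1 rose (median log2 fold change -0.30), beside 19.6% lower and 18.5% higher among all tested genes. LGALS3 had 11.5, 12.0 and 7.87 FPKM in shTDP43 and 16.4, 18.1 and 15.7 FPKM in shNC, so that its shTDP43 replicate 3 stood below the other 2. LGALS3BP, a secreted galectin-binding glycoprotein, fell to 77.4% of shNC and LGALSL, a galectin-related protein gene, to 83.2%. LGALS8 rose to 111% (limma adjusted p = 0.0275), a call lost with the replicate number as a block (adjusted p = 0.0605), without shTDP43 replicate 2 and without each shNC replicate, with adjusted p up to 0.0816 when 1 library was left out and 0.0999 when both low-SNORD3A libraries were.

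The matrix glycoprotein genes TNC and FN1 moved in opposite directions. TNC (chromosome 9, 115019575 to 115118157), which encodes tenascin-C, an anti-adhesive matrix protein of the migrating neural crest, had 4.38, 4.38 and 4.34 FPKM in shTDP43 libraries, against 2.36, 2.44 and 2.30 FPKM in shNC libraries. It rose to 184% of shNC with little spread in either group (log2 fold change 0.67, 95% interval 0.54 to 0.80; limma adjusted p = 6.67e-05), and 80 tested genes rose further. FN1 (chromosome 2, 215360865 to 215436068), which encodes the adhesive matrix protein fibronectin, had 5.36, 5.48 and 5.24 FPKM in shTDP43 libraries, against 8.22, 8.45 and 7.68 FPKM in shNC libraries. It fell to 66.0% of shNC (log2 fold change -0.52, 95% interval -0.63 to -0.40; limma adjusted p = 0.000137). The 3′ end of FN1 overlaps ATIC, whose levels were 48.5 FPKM in shTDP43 and 47.9 FPKM in shNC, and reads in the overlap cannot be separated without strand.

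Receptors and matrix partners of fibronectin and tenascin mostly fell, with 10 of 17 tested lower and 4 higher (median log2 fold change -0.19). Of all tested genes, 19.6% were lower and 18.5% higher. The sharpest fall was that of TGM2, a transglutaminase that cross-links fibronectin, with 0.822 ± 0.119 FPKM in shTDP43 and 2.84 ± 0.172 FPKM in shNC (29.0% of shNC; limma adjusted p = 4.59e-05). TNR, the neural relative of tenascin-C, had 20.4, 19.2 and 20.7 FPKM in shTDP43, against 30.0, 30.2 and 28.8 FPKM in shNC, and so fell while TNC rose. The shared integrin chain gene ITGB1 fell to 86.4% of shNC, and ITGA5, whose product pairs with ITGB1 in the classical fibronectin receptor, was low in both groups, with at most 0.0671 FPKM in shTDP43 and at most 0.215 FPKM in shNC. SDC2, a heparan sulfate proteoglycan that binds fibronectin, rose to 164% of shNC (46.5 ± 1.52 FPKM in shTDP43 and 28.4 ± 0.340 FPKM in shNC), and ITGB8 rose to 162%. The list had 2 members higher and 6 lower without both libraries low in SNORD3A, 2 higher under the replicate block, and 2 higher without any 1 of the libraries other than shNC replicate 1.

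**Figure D3:**
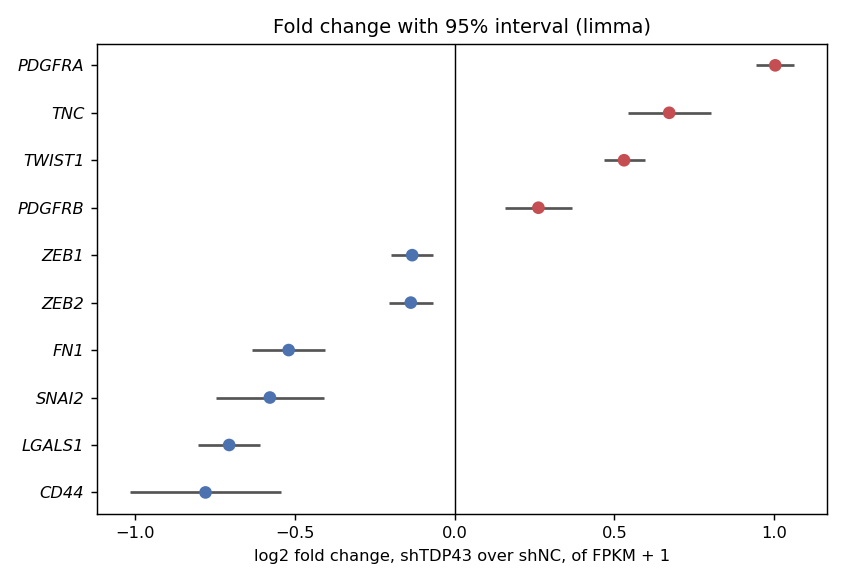
Log2 fold change of FPKM + 1, shTDP43 over shNC, for the 10 genes, with the 95% interval from limma (6 libraries). The 4 genes to the right of 0 run from PDGFRB at 0.26 to PDGFRA at 1.00, and the 6 to the left from ZEB1 at -0.13 to CD44 at -0.78, with no interval reaching 0.

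The order of levels was nearly the same in both groups. TWIST1, LGALS1, PDGFRA, ZEB1 and ZEB2 were the 5 most abundant in that order in shTDP43 and in shNC. In shTDP43 they were followed by PDGFRB, FN1, TNC, SNAI2 and CD44, and in shNC by FN1, PDGFRB, SNAI2, CD44 and TNC. Neighbours in each order had ranges over the 3 libraries that did not overlap, except CD44 (2.04 to 2.74 FPKM) and TNC (2.30 to 2.44 FPKM) in shNC. LGALS1 and PDGFRA were close in shTDP43, at 81.7 and 72.2 FPKM, and far apart in shNC, at 134 and 35.5 FPKM. The 10 genes summed to 481 to 493 FPKM in shTDP43 libraries and 426 to 431 FPKM in shNC libraries, a sum in which TWIST1 has the greatest weight.

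By pattern over the 6 libraries (root mean square difference of log2(FPKM + 1), each gene centred on its own mean), the tested genes nearest to PDGFRA were CNTN1, an axonal adhesion protein gene (difference 0.0217, 75.6 FPKM in shTDP43 and 36.8 FPKM in shNC), BMPR1B, a bone morphogenetic protein receptor gene (0.0241, 52.1 FPKM in shTDP43 and 25.2 FPKM in shNC) and KCNMA1, a potassium channel gene (0.0383, 10.9 FPKM in shTDP43 and 5.08 FPKM in shNC). Those nearest to CD44 were SMIM17 (0.0420, 1.21 FPKM in shTDP43 and 2.74 FPKM in shNC), ZNF404 (0.0425, 1.38 FPKM in shTDP43 and 3.17 FPKM in shNC) and LINC01021 (0.0626, 0.646 FPKM in shTDP43 and 1.77 FPKM in shNC), all of low level.

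Other genes of the mesenchymal state mostly fell, with 13 of 18 tested lower and 1 higher, against a background of 19.6% lower and 18.5% higher. Their median log2 fold change was -0.54, beside 0.00 for all tested genes. On the log2(FPKM + 1) scale the largest falls were those of the collagen gene COL3A1, with 1.93 ± 0.405 FPKM in shTDP43 and 16.6 ± 0.246 FPKM in shNC, and the annexin gene ANXA2, with 6.03 ± 0.998 FPKM in shTDP43 and 20.9 ± 0.873 FPKM in shNC. S100A11, a calcium-binding protein gene, had 0, 0.150 and 0.452 FPKM in shTDP43, against 3.20, 2.23 and 2.00 FPKM in shNC, the lowest ratio of means among the tested genes of the list, and TAGLN, the gene of an actin-bundling protein, reached 29.6% of the shNC mean. The member that rose was FOSL2, an AP-1 transcription factor gene, at 6.12 FPKM in shTDP43 and 5.25 FPKM in shNC. It did not pass with a replicate block, when shTDP43 replicate 1 or 3 or shNC replicate 1 or 3 was left out, or when both low-SNORD3A libraries were (limma adjusted p up to 0.151). Of the 20 members below the level tested, the core mesenchymal factor PRRX1 was at or near 0 in all libraries, YAP1 had 0.0188 to 0.0297 FPKM in shTDP43 and 0.148 to 0.159 FPKM in shNC, and RUNX1 had 0.0793 to 0.184 FPKM in shTDP43 and 0.479 to 0.564 FPKM in shNC. SOX9, a neural crest factor gene singled out after its values were seen, was below the level tested over all libraries, with 1.52, 1.35 and 1.19 FPKM in shTDP43 and 0.529, 0.511 and 0.386 FPKM in shNC. The list had 22 lower and 2 higher with no filter on low values and 7 lower among genes of at least 5 FPKM.

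**Figure D4:**
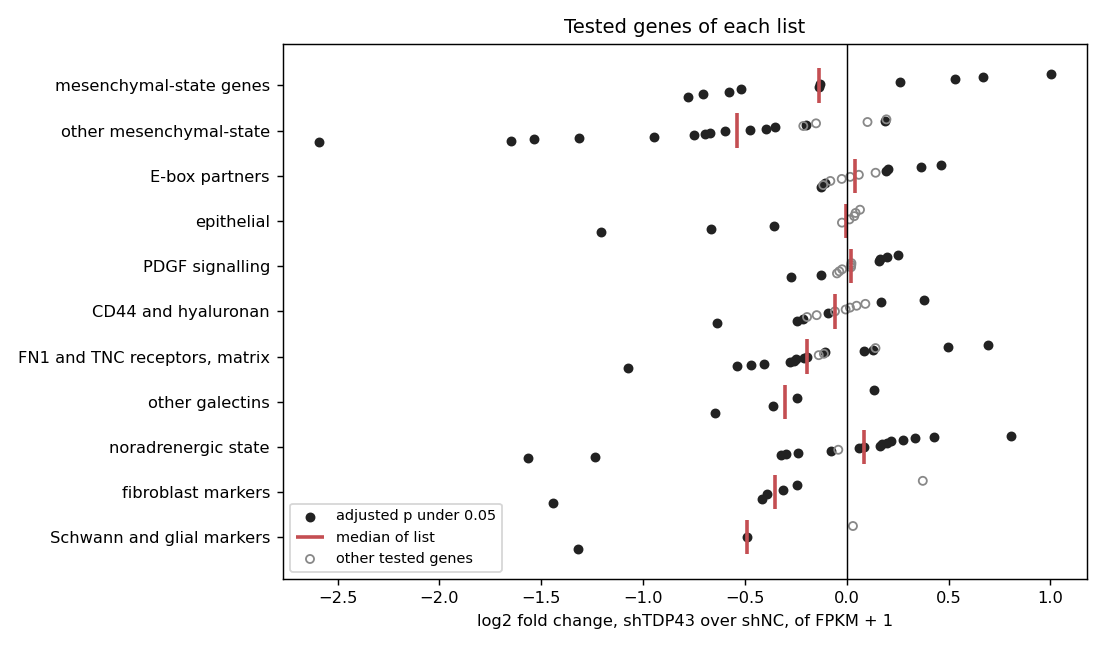
Log2 fold change of FPKM + 1, shTDP43 over shNC, for each tested gene of the 10 genes (top row) and of 10 other lists, with filled points for an adjusted p under 0.05, open points for other tested genes and a red line at the list's median; points are shifted up or down only to keep them apart. The 10 genes spread from -0.78 to 1.00, while the other mesenchymal-state genes have a median of -0.54.

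Partners and relatives of the E-box factors moved in both directions. Of 12 tested, 4 rose and 2 fell, with a median log2 fold change of 0.04, beside 18.5% higher and 19.6% lower among all tested genes. TCF3 and TCF12, E-proteins that pair with TWIST1, rose to 116% and 115% of shNC, and TCF4, the most abundant E-protein gene here, had 158 ± 2.03 FPKM in shTDP43 and 170 ± 0.369 FPKM in shNC. SCRT1 and SCRT2, neuronal zinc finger repressors of the Snail superfamily, had 4.51 and 4.40 FPKM in shTDP43 and 3.28 and 2.92 FPKM in shNC. SNAI1, the closest relative of SNAI2, had 3.46, 3.80 and 4.18 FPKM in shTDP43 and 4.25, 4.18 and 4.17 FPKM in shNC, with ranges that meet (limma adjusted p = 0.211). ID1, an inhibitor of such factors, had 110 ± 1.10 FPKM in shTDP43 and 108 ± 2.29 FPKM in shNC (limma adjusted p = 0.602), and ID2 fell to 91.5% of shNC (adjusted p = 0.0209). TCF4 and ID2 did not pass with quantile normalization, and ID2 did not pass without a variance trend, with both low-SNORD3A libraries left out, or with shTDP43 replicate 3 left out.

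Epithelial genes, which ZEB and Snail proteins are known to repress, were mostly below the level tested, 20 of 28 in the table. CDH1, which encodes E-cadherin, had at most 0.0391 FPKM in shTDP43 and at most 0.0255 FPKM in shNC, and the miR-200 family hairpins were listed at 0 throughout, which in poly(A) libraries says nothing about the mature miRNAs. Of the 8 tested genes 3 fell and the other 5 did not pass (median log2 fold change -0.0049). Of all tested genes 38.1% passed, 19.6% lower and 18.5% higher. KRT18, a keratin gene also found in mesenchymal cells, had 0.306, 0.197 and 0.600 FPKM in shTDP43 and 2.32, 2.62 and 1.56 FPKM in shNC, and LLGL2, a polarity gene, had 0.635 ± 0.282 FPKM in shTDP43 and 1.58 ± 0.279 FPKM in shNC. CLDN4 fell to 66.7% of shNC at a limma adjusted p of 0.0496, which was 0.0551 without a trend in the variance and up to 0.148 without 1 library and 0.104 without both low-SNORD3A libraries. The list also had 2 lower, and not 3, with quantile normalization and under the replicate block. Without shNC replicate 2, KRT18 and LLGL2 had means under 1 FPKM and were not tested, and without shNC replicate 3 this was so for LLGL2.

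Markers of the cell line and of other cell types were measured beside these genes. Most noradrenergic genes were high in both groups, with HAND2 at 424 ± 8.15 FPKM in shTDP43 and 446 ± 2.76 FPKM in shNC and DBH, the noradrenaline-synthesising enzyme gene, at 191 ± 3.86 FPKM in shTDP43 and 170 ± 1.86 FPKM in shNC. TH, the enzyme gene that defines catecholamine cells, was at most 0.207 FPKM in shTDP43 and 0.0763 FPKM in shNC. INSM1 was listed at 0 in all shTDP43 libraries and at most 0.0672 FPKM in shNC. Of 17 noradrenergic genes tested, 10 rose and 6 fell (median log2 fold change 0.09), beside 18.5% higher and 19.6% lower among all tested genes. TFAP2B rose to 135% of shNC, whereas the receptor gene RET fell to 42.1%, and the granule protein genes split, CHGA at 175% and CHGB at 33.6%. The 19 noradrenergic genes in the table summed to 2443 to 2503 FPKM in shTDP43 libraries and 2504 to 2533 FPKM in shNC libraries.

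Fibroblast markers fell in 5 of 6 tested cases (median log2 fold change -0.35), beside 19.6% lower and 18.5% higher among all tested genes. Those that fell include COL5A1 (0.522 ± 0.0686 FPKM in shTDP43 and 3.13 ± 0.199 FPKM in shNC), the matrix cross-linker LOX (71.2% of shNC), S100A4 (72.4%) and the metalloprotease gene MMP2 (80.2%). The sixth was DPT, a dermal matrix protein gene, which had 1.62, 1.42 and 0.973 FPKM in shTDP43 and 1.00, 0.678 and 0.714 FPKM in shNC. Its log2 fold change of 0.37 did not pass (limma adjusted p = 0.0516), but it did with quantile normalization, without a variance trend, under the replicate block, without shTDP43 replicate 3, without shNC replicate 1 and with both of these left out (adjusted p from 0.0192 to 0.0497). The 9 markers in the table summed to 95.6 to 96.6 FPKM in shTDP43 and 115 to 126 FPKM in shNC, most of it MMP2 and DDR2. The defining marker PDPN was listed at 0 in all libraries, and FAP reached at most 0.0732 FPKM in shTDP43 and 0.156 FPKM in shNC. Schwann and glial markers summed to 11.8 to 12.8 FPKM in shTDP43 and 22.7 to 24.1 FPKM in shNC. Of the 3 tested, PMP22 (36.5% of shNC) and S100B (51.5%) fell (list median log2 fold change -0.49), beside 19.6% lower among all tested genes. S100B did not pass without shNC replicate 1 or 2 or with both low-SNORD3A libraries left out (limma adjusted p = 0.129), while SOX10 stayed at most at 0.368 FPKM in every library. Endothelial markers summed to at most 0.618 FPKM and blood cell markers to at most 2.02 FPKM in any library, with PTPRC at most 0.0285 FPKM. The part that a change in cell mixture has in the values of the 10 genes was not tested.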

How the data were processed

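Poly(A) RNA libraries of SH-SY5Y cells with a hairpin against TDP-43 (shTDP43, 3 libraries) or a control hairpin (shNC, 3 libraries) were compared. The authors deposited FPKM values per gene symbol. TopHat2 2.1.0, SAMtools, Cuffdiff 2.2.1 and the hg38 build were used per the submitters' processing notes, with annotation, strand use, multiply matching reads and scaling not given in the sources used here.

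Values were tested as log2(FPKM + 1) with limma 3.58.1 in R 4.3.3 (group as the only term, variance trend on level, two-sided, Benjamini-Hochberg over 13263 genes whose mean reached 1 FPKM). The model was checked on simulated data. Percentages and folds are ratios of mean FPKM. Paralog ratios were tested by exact permutation of the 6 libraries (scipy 1.17.1). The replicate block adds the replicate number as a term. Same-numbered libraries deviated from their group means with correlations of -0.07, 0.06 and 0.11, so the numbers were not taken as pairs. No 2 libraries shared over 0.0905% of identical values among tested genes.

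Named genes are the 10, TARDBP, up to 4 genes per list with the largest change past the threshold, and the 3 nearest patterns of the strongest rise and fall; other genes were named for their role or after their values were seen. The members and lists were chosen with earlier results of these data known. Coordinates and sequences are RefSeq's on GRCh38.p14; 7 of the 10 genes had promoter windows in that table and outside chromosome 8.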

Additional observations from a re-analysis of the deposited data

How the results depend on the processing

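The 10 genes kept their direction in all 15 alternatives in which they were tested, and a limma adjusted p under 0.05 in 145 of 147 fits, the exceptions being ZEB1 and ZEB2 without both libraries low in SNORD3A. CD44, TNC and SNAI2 were not tested at a minimum of 5 FPKM. Over all genes, leaving out both of these libraries reduced the 5054 genes called to 3323 and the 2448 called higher to 1563, with fewer libraries in the fit. The difference between shTDP43 and shNC in the ZEB1 to ZEB2 log2 ratio, 0.0044 in the main analysis, changed sign to -0.000458 with quantile normalization, and ran from -0.00256 to 0.00851 without 1 library. The replicate block, with libraries that share only a number, called 4502 genes and all 10 of the genes described, and changed no call among the 10. Of 37 partner genes named by rule, 0 reversed, and 513 of 537 fits kept the call. Levels near 1 FPKM, CD44 among them, rest on few reads, whose number is unknown.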
